A study of Mus musculus with 4 samples.

Results

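The cytosolic ribosomal protein genes encode the proteins of the small (Rps) and large (Rpl) subunits of the cytoplasmic ribosome. They were taken by name: a symbol that starts with Rps or Rpl followed by a digit or p, leaving out pseudogene symbols that end in -ps, the Rps6k kinases and predicted genes, and present by Ensembl identifier in the feature lists of all 4 libraries. The rule gave 85 genes of 30406 shared features, 33 by name of the small subunit and 52 of the large subunit, on 19 chromosomes. It used no measured value. Rps19bp1 matches the name but encodes a protein that binds Rps19, not a ribosomal protein, and Rpsa, Fau and Rack1 encode ribosomal proteins that the name rule leaves out.

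The series holds 4 mouse single-cell RNA-seq libraries made with the 10x Genomics 3′ version 3.1 kit from live cells of digested tumours, 1 library per group. RPR2 and CRPR2 are lung samples from a knockout-induced mouse model of small cell lung cancer (SCLC), a neuroendocrine tumour. The labels spell out no alleles, Cre driver, age or sex. RPR2 is the field's usual name for mice that lose Rb1, Trp53 and Rbl2 in the lung, and the labels do not say what the added C stands for. The other libraries are allografts of the preSC mouse cell line, of genotype WT and CracdKO. An allograft also holds cells of its host, and whether 1 animal or several, or 1 clone or several, went into a library was not given in the sources used here. Cracd encodes a regulator of actin capping.

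With 1 library per group, no test between groups was possible, and every difference between libraries lacks a replicate check. A library held 9215 to 18559 barcodes and 42592323 to 110576113 unique molecular identifiers (UMIs, 1 count per captured molecule), and 8857 to 17929 cells per library were kept. Any pair of libraries shared 36 to 79 barcodes, at most 0.629% of the smaller library. The targeted gene was listed under its older symbol C530008M17Rik. In tumour cells its level in CPM (the gene's UMIs over all UMIs of those cells, on the usual CPM scale) was 31.7 for RPR2 and 23.6 for CRPR2, and 6.38 for preSC_WT and 85.7 for preSC_CracdKO. The library labelled preSC_CracdKO therefore held more of this RNA than that labelled preSC_WT, which goes against the label, although a 3′ tag need not lie in the deleted stretch. Directions for the allografts are given between the libraries as labelled. In the lung pair Xist was at 1574 CPM in RPR2 tumour cells and 0.22 in CRPR2, while the Y-linked Ddx3y was at 0 and 53.7 CPM, so sex and genotype cannot be told apart there.

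Each ribosome carries a single copy of most of these proteins, so their genes are transcribed at high and roughly matched levels. Their messages start with a run of pyrimidines, the 5′ terminal oligopyrimidine (TOP) motif, through which growth signals acting by mTOR and LARP1 control their translation and stability. Resting lymphocytes are known for a high share of such messages among a small total. Some members have paralogs that replace them in particular cells, such as Rpl3l in striated muscle, Rpl22l1 for Rpl22 and Rps27l, a p53 target, for Rps27.

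For 7 members whose level differed between libraries or cell classes, the 15 bases before and the 15 from the annotated start are printed. They come from RefSeq on GRCm38.p6 and run 5′ to 3′ on the transcribed strand. Capitals mark a run of at least 8 C or T bases that reaches within 5 bases of the start. A marked run need not be a TOP motif. That of Rps27l ends before the annotated start, and that of Rpl13a begins at base 3. Rps15, Rps12 and Rpl9 have no such run.
Rps18, chr17:33955651-33955680, minus strand: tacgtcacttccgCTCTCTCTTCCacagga
Rps27, chr3:90213634-90213663, minus strand: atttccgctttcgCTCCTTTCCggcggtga
Rpl13a, chr7:45128731-45128760, minus strand: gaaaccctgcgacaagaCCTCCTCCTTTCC
Rps27l, chr9:66946071-66946100, plus strand: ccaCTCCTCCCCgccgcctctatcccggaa
Rps15, chr10:80292416-80292445, plus strand: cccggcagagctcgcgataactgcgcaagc
Rps12, chr10:23787195-23787224, minus strand: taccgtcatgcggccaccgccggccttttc
Rpl9, chr5:65391417-65391446, minus strand: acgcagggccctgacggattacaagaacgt
Of the 85 members, 65 had a promoter entry. A run of 8 or more C or T within 5 bases of the start stood at 24 of the 65 (36.9%), against 3044 of 26960 other genes (11.3%). A start at C followed by 4 C or T bases was found for 14 of the 65 (21.5%) and 799 of the others (2.96%). These are matches to letters around 1 annotated start per entry, read on the transcribed strand only.

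Over all kept cells the members held 17.4% of the RPR2 library's UMIs and 17.1% of those of CRPR2. In the allografts they held 11.4% for preSC_WT and 18.3% for preSC_CracdKO. The kit counts 3′ ends, so CPM is not scaled by gene length. Among the highest mean levels over the 4 libraries were those of Rpl13 (4645 CPM), Rpl32 (3743), Rps24 (3585) and Rpl19 (3574). The lowest detected members were the muscle paralog Rpl3l (0.34 CPM), the testis-enriched Rpl39l (0.25), Rps27rt (31.2), Rps19bp1 (63.5) and Rpl7l1 (66.3). Rpl10l, a testis paralog of Rpl10, had 0 UMIs in every library. In all, 81 members reached 20 CPM in every library and 3 (Rpl3l, Rpl10l and Rpl39l) reached it in none.

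The share of UMIs differed between cell classes, and in some classes between libraries. Cells were clustered without the members, and clusters were named by marker genes, with "-like" for a class named this way and "tumour" for clusters that carried neuroendocrine markers. In the lung pair B-cell-like cells held 33.3% in RPR2 and 34.1% in CRPR2, T-cell-like cells 23.8% and 35.3%, and monocyte-like cells 20.4% and 22.2%. Tumour cells held 14.1% and 13.4%, club-like airway cells 14.1% and 14.2%, and macrophage-like cells 13.4% and 14.5%. Fibroblast-like cells held 13.6% and 16.5%. Plasma-cell-like cells held 9.82% and 13.5%, and neutrophil-like cells had the lowest share of the named classes in both libraries, at 7.02% and 9.03%. In the allografts T-cell-like cells held 27.7% in preSC_WT and 34.3% in preSC_CracdKO, B-cell-like cells 24.3% and 29.0%, and tumour cells 10.4% and 18.25%. Fibroblast-like cells stood at 16.1% and 16.0%, macrophage-like cells at 15.4% and 16.5%, endothelial-like cells at 14.0% and 13.7%, and neutrophil-like cells at 12.3% and 8.34%. In all 4 libraries both lymphocyte classes lay above the tumour class. The other named classes lay on either side of it in both lung libraries. In preSC_WT they all lay above the tumour class, and in preSC_CracdKO they all lay below it.

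**Figure D1:**
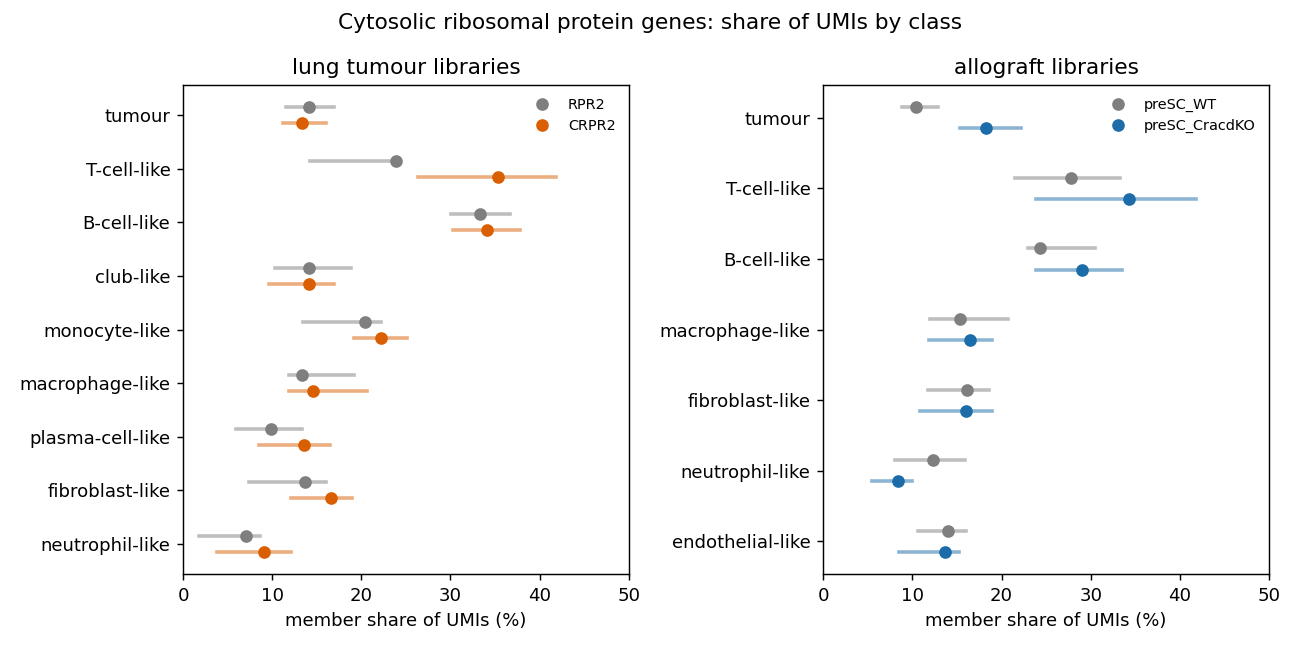
Share of UMIs held by the 85 members (horizontal axis, percent) in each cell class, for the lung pair (left) and the allograft pair (right). Points are libraries and show the summed share, and lines span the quartiles of single cells. B-cell-like cells of the lung pair sit at 33.3% and 34.1%, and the tumour classes of the allografts at 10.4% and 18.25%.

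In the lung clusters named tumour the share was close between the 2 libraries. It was 14.1% of UMIs in 3066 RPR2 cells and 13.4% in 6629 CRPR2 cells, a ratio of 0.949 with a 95% interval of 0.947 to 0.950 that covers counting error only. The share was lower in CRPR2 in 6 of the 7 tumour clusters and higher in cluster 7, the Tph1-carrying cells, at 14.1% and 14.6%. The widest gap lay in cycling cluster 11, at 12.2% and 10.3%. Cluster 13, of 508 CRPR2 and 2 RPR2 cells, was left unnamed and is not in the tumour class. It held 24.8% of UMIs in CRPR2 and Krt8 at 2300 CPM. Its CRPR2 cells held 2356245 member UMIs of 9507348, against 3593121 of 26857026 in the tumour class of that library. Counted as tumour, cluster 13 would put the CRPR2 share above that of RPR2. The direction given here therefore holds for the named clusters only. Median depth was 6058 UMIs per cell in RPR2 and 3375 in CRPR2, mitochondrial transcripts held 2.77% and 2.75% of UMIs, and the bearing of depth on the share was not tested.

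Among single members in lung tumour cells, Rps18, a protein of the small subunit head, stood apart. A member counts as different where the ratio of CPM is at least 1.5 in either direction and the higher library has at least 20 CPM. Rps18 was at 1157 CPM in RPR2 and 1968 in CRPR2, a ratio of 1.70 (95% interval 1.68 to 1.73). It was the only one of 82 members at 20 CPM to pass upward, where 1.97% of all features did, and none passed downward, where 2.08% did. The 33 measured genes within 1 Mb of Rps18 had a median log2 ratio of -0.03, with 0 higher and 1 lower. Rps18 shares 67.4% of the 50-base words in the last 400 bases of its transcripts with the predicted genes Gm10260 and Gm11361, so its count depends on how shared reads were assigned.

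At the lower end genes of both subunits were found. Rpl11, which with Rpl5 and 5S RNA forms the particle that restrains Mdm2, was at 3286 CPM in RPR2 and 2204 in CRPR2 (ratio 0.671), just inside the 1.5-fold limit. The 18 measured genes within 1 Mb of Rpl11 had a median log2 ratio of -0.40, with 0 higher and 5 lower. Rpl5 was at 1140 and 876 CPM (ratio 0.768). Rpl23a, Rpl10a, Rpl22l1 and Rps6 followed with ratios of 0.710, 0.731, 0.742 and 0.746. On the other side Rpl38 was at 1026 and 1312 CPM (1.28), Rpl22 at 782 and 975 (1.25) and Rps27 at 1180 and 1439 (1.22). The 7 measured genes within 1 Mb of Rpl22 had a median log2 ratio of 0.37, with 1 higher and 0 lower. The median log2 ratio was -0.09 over the members and -0.03 over all features, and it was alike for small (-0.09) and large (-0.07) subunit genes. Of the ribosomal proteins outside the name rule, Rpsa had a ratio of 0.704, Rack1 of 0.842 and Fau of 0.920.

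In the allograft tumour cells most members were higher in the library labelled preSC_CracdKO. The share was 10.4% of UMIs in 13669 cells of preSC_WT and 18.25% in 14769 cells of preSC_CracdKO, a ratio of 1.75. Of 81 members at 20 CPM, 55 were higher by 1.5-fold or more and 0 lower, against 14.9% higher and 25.9% lower over all features. The median log2 ratio was 0.68 over the members and -0.15 over all features, and 0.79 and -0.03 after TMM scaling. It was 0.70 for the small and 0.68 for the large subunit. By subunit, 23 of 32 small and 32 of 49 large subunit genes were higher.

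The 2 libraries were spread unequally over the tumour clusters. Clusters 1, 6 and 7, of 5492, 1927 and 1832 preSC_WT cells and at most 1 preSC_CracdKO cell, held 10.4%, 10.9% and 8.63%, and clusters 12 and 14, nearly all preSC_WT, held 14.8% and 12.8%. Clusters 1, 6 and 7 carried Krt8, a simple epithelial keratin, at 1576 to 2523 CPM. In the clusters held by both libraries the shares were 14.7% in preSC_WT and 19.9% in preSC_CracdKO in cluster 0, 14.3% and 16.0% in cluster 2, 11.3% and 17.1% in cluster 3 (44 preSC_CracdKO cells), 16.4% and 17.2% in cluster 4, and 18.3% and 18.7% in cluster 5. With each shared cluster given the same weight, the shares were 15.0% and 17.8% and the ratio 1.18. For preSC_WT this rests on 186, 301, 155 and 270 cells in clusters 0, 2, 4 and 5 and 3017 in cluster 3. Cells of the 2 libraries in a shared cluster differed in marker genes, as given below. Then 16 members were higher and 4 lower by 1.5-fold, against 18.2% and 20.5% of all features. Rpl23a (492 and 1806 CPM, ratio 3.67) and Rps15 (831 and 2334, 2.81) still led, and the lower members were Rpl9 (0.545), Rps27l (0.582), Rpl22 (0.629) and Rpl7l1 (0.631).

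Depth and other genes also differed between the 2 libraries, not always in step with the shares. In cluster 5, where the shares were nearly equal, median depth was 908 UMIs in preSC_WT and 5576 in preSC_CracdKO. In cluster 3, with shares of 11.3% and 17.1%, it was 3415 and 2684.5. The preSC_WT cells of clusters 0, 2, 4 and 5 had median depths of 908 to 1507 UMIs, against 5531 to 8132 in preSC_CracdKO. In cluster 0 they held Krt8 at 863 CPM against 22.8, and in cluster 2 at 534 against 9.33. In clusters 4 and 5 they held it at 371 against 8.66 and at 575 against 4.85. Stmn2, the leading gene of cluster 5, was there at 3.03 CPM in preSC_WT and 587 in preSC_CracdKO. The 2 libraries thus did not hold like cells in these clusters. Over the tumour class mitochondrial transcripts held 1.76% of UMIs in preSC_WT and 2.87% in preSC_CracdKO. All 12 genes of a dissociation and stress list were lower in preSC_CracdKO, with a median log2 ratio of -4.74, among them Fos at 2732 and 57.1 CPM. The part of these differences in the ribosomal share was not tested.

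**Figure D2:**
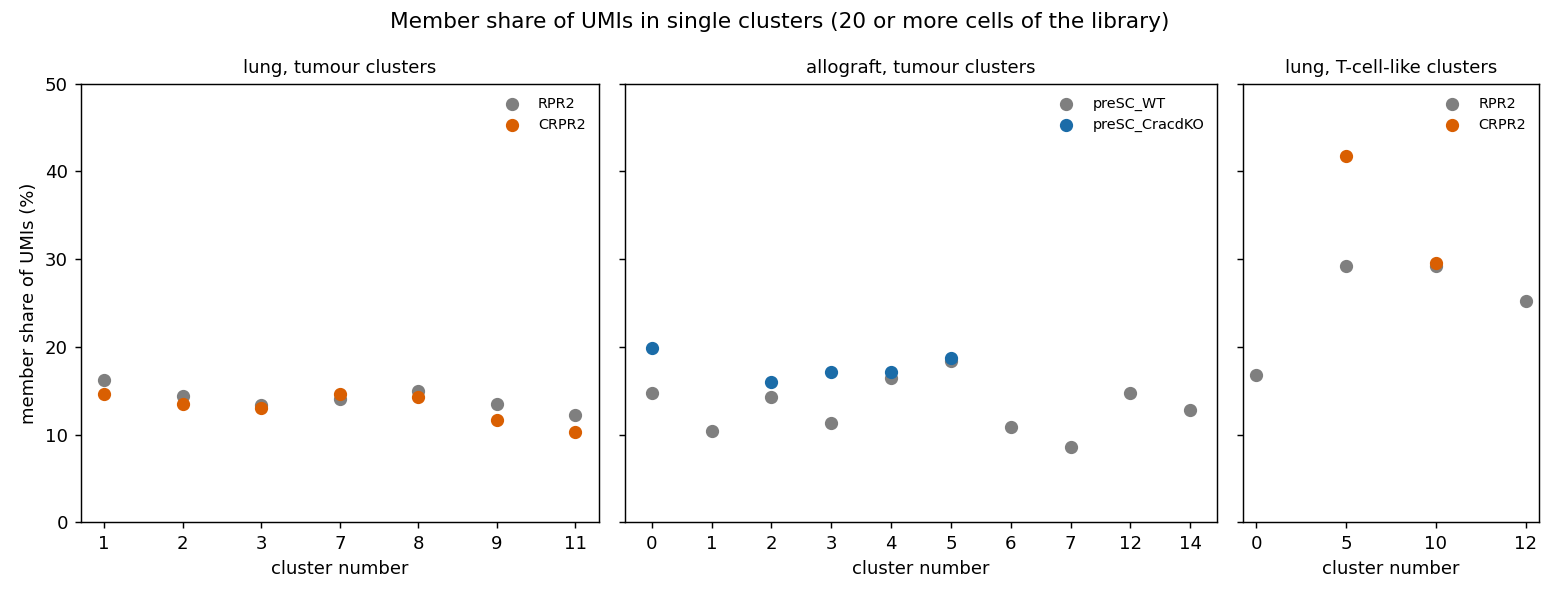
Share of UMIs held by the members (vertical axis, percent) in single clusters of the lung tumour, allograft tumour and lung T-cell-like classes (left to right), for libraries with 20 or more cells in the cluster. Points are the summed shares of a library. Allograft clusters 4 and 5 show nearly equal shares in both libraries, and cluster 7, with 8.63%, is held by preSC_WT.

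Single members were spread over a wide range in the allograft tumour cells, from a ratio of 0.751 to one of 5.22. Rpl23a, at the exit of the peptide tunnel where the signal recognition particle docks, was at 351 CPM in preSC_WT and 1831 in preSC_CracdKO (ratio 5.22, 95% interval 5.15 to 5.28). Rps15, a small subunit head protein, was at 521 and 2403 CPM (4.61, 4.56 to 4.66). The X-linked Rpl36a was at 312 and 1285 CPM (4.11) and Rps12 at 592 and 2206 (3.72). These levels were several times higher in preSC_CracdKO, beyond the 1.75-fold difference in the summed share. Rps15 and Rpl23a also lay above the median member in every immune and stromal class of this pair. Both allograft libraries carry the same feature list and software header, but whether their reads were otherwise processed alike was not given in the sources used here, so processing and genotype cannot be told apart for these members.

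Rps21 followed with a ratio of 3.64, Rpl13a, known from the GAIT complex that silences inflammatory transcripts, with 3.52 (71.3 and 251 CPM), Rpl37 with 3.45, Rps29 with 3.05 and Rpl31 with 2.95. In the other direction Rpl9 was at 1923 and 1445 CPM (0.751), Rpl7l1, a paralog of Rpl7 that acts in ribosome assembly, at 74.8 and 61.2 (0.818), and Rps27l at 311 and 262 (0.844). Rps3, a protein at the messenger entry site that also acts in DNA repair, was nearly level at 2051 and 2153 CPM (1.05). Relative to the median member, 14 members stood higher and 4 lower by 1.5-fold or more. Relative to the median feature, 19.6% of all features stood higher and 20.6% lower by that much.

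Some of these members have near copies that the feature list counts as well. Over the last 400 bases of their transcripts, 12 members shared at least 50% of their 50-base words with another feature of the allograft list, and 7 with one of the lung list. Rps12 shared 82.1% with Rps12-ps3, Rpl36a 76.9% with Rpl36a-ps1 and Gm6525, and Rpl9 54.3% with Rpl9-ps6, and their values are uncertain to that extent. The copies moved with their parents in the allograft tumour cells: Rps12-ps3 had a ratio of 3.36, Rpl36a-ps1 of 4.14 and Rpl13a-ps1 of 3.97, while Rpl9-ps6 had 0.827. The 52 measured genes within 1 Mb of Rps15 had a median log2 ratio of -0.15 and the 31 around Rpl23a one of 0.20. Around Rpl36a the 10 neighbours had a median of 0.91, with 9 higher.

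**Figure D3:**
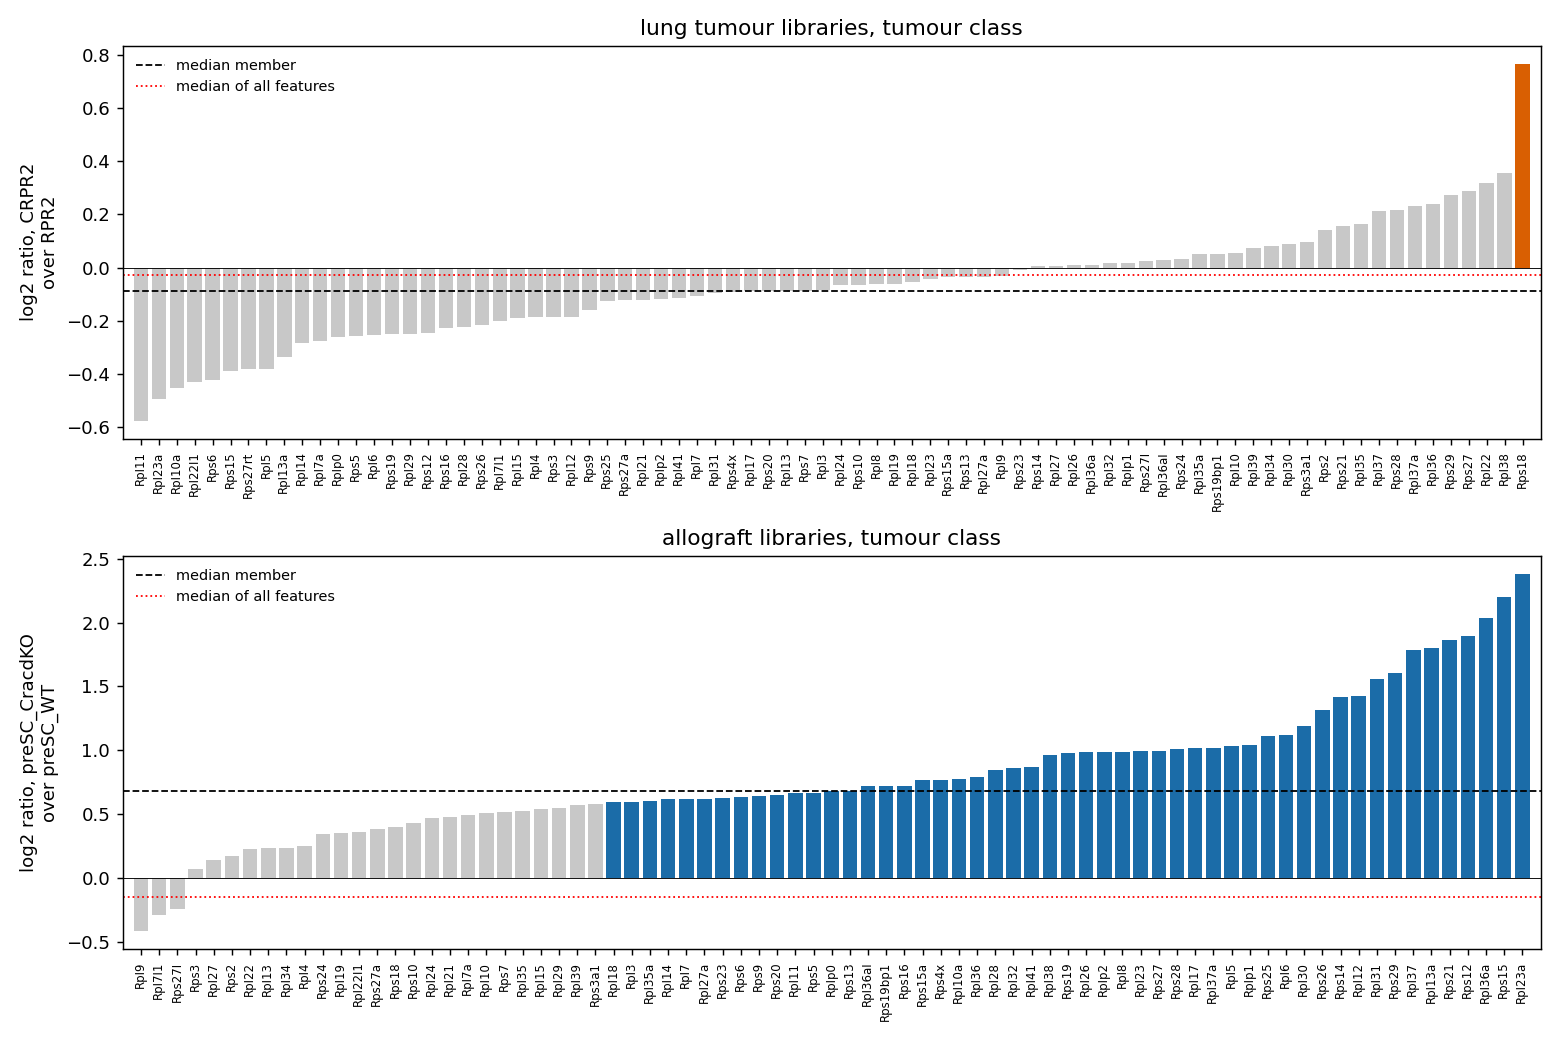
Log2 ratio of CPM for members at 20 CPM or more in the tumour class, CRPR2 over RPR2 (top) and preSC_CracdKO over preSC_WT (bottom), ordered by size, with coloured bars for ratios of 1.5 or more in either direction, a dashed line for the median member and a dotted line for the median of all features. Rps18 alone is coloured in the lung pair, at a log2 ratio of 0.77, while Rpl23a reaches 2.38 in the allografts.

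The functional groups of the ribosome were counted in the allograft tumour cells, where 14.9% of all features were higher and 25.9% lower. Of all 81 members at 20 CPM there, 55 were higher and 0 lower, and the groups are part of these members or close to them. The difference between a group and the other members was not tested. The stalk proteins, which recruit elongation factors, were higher in preSC_CracdKO in all 3 cases: Rplp0 was at 2577 and 4131 CPM, Rplp1 at 1422 and 2926, and Rplp2 at 1074 and 2135. Both protein partners of 5S RNA were higher as well, Rpl5 at 474 and 970 CPM and Rpl11 at 2388 and 3800. Among ribosomal proteins outside the name rule Rack1, a signalling scaffold on the small subunit, was at 1056 and 3372 CPM, Fau at 1667 and 2899 and Rpsa at 2663 and 4329. Among the X-linked members Rpl10 had a ratio of 1.43, Rpl39 of 1.49, Rps4x of 1.71 and Rpl36a of 4.11. Among paralogs and their parents at 20 CPM, 2 of 4 small subunit and 4 of 9 large subunit genes were higher and 0 lower. Their log2 ratios reached down to -0.24 and -0.29. Rpl22l1 was at 426 and 547 CPM and its parent Rpl22 at 307 and 360. The misnamed Rps19bp1 was at 52.3 and 86.7 CPM.

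Other genes of the translation machinery were counted in the same cells, where 14.9% of all features were higher and 25.9% lower. The difference between these groups and the members was not tested. Of 16 elongation factors and further TOP messages, 5 were higher and 1 lower, with a median log2 ratio of 0.53. Hnrnpa1 was at 329 and 674 CPM, Eif3e at 232 and 421, and Btf3, a subunit of the nascent chain complex, at 992 and 557. Of 23 ribosome biogenesis genes at 20 CPM, 9 were higher and 0 lower (median 0.39), among them Bop1 at 28.4 and 59.6 CPM and the subunit joining regulator Eif6 at 234 and 431. Of 76 mitochondrial ribosomal protein genes, 13 were higher and 4 lower (median 0.16). In lung tumour cells none of these TOP and mitochondrial genes passed, and 1 of 22 biogenesis genes was lower. Of all features there, 1.97% were higher and 2.08% lower.

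In lung T-cell-like cells the share was 23.8% of UMIs in 4735 RPR2 cells and 35.3% in 985 CRPR2 cells, a ratio of 1.48. The libraries held different cells. Cluster 0, with 2720 RPR2 cells, no CRPR2 cell and 1556 CPM of the receptor recombinase Rag1, held 16.8%, and cluster 12, with 687 RPR2 cells and Top2a at 614 CPM, held 25.2%. In cluster 10, marked by the effector gene Ccl5, the shares were 29.2% in RPR2 and 29.5% in CRPR2. In cluster 5, marked by Lef1 and Ccr7 of resting T cells, they were 29.2% and 41.8%. Without the clusters held to 90% or more by 1 library the ratio was 1.21. Malat1, a nuclear RNA, was at 50804 CPM in cluster 0, and at 36306 and 23925 CPM in cluster 5. All 13 cycling genes were lower in CRPR2 over the whole class, with a median log2 ratio of -3.58. The part of these in the share was not tested.

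Over that class 37 of 82 members were higher in CRPR2 and 4 lower, against 11.5% and 39.1% of all features. The median log2 ratio was 0.56 over the members and -0.41 over all features. Rps18 led with 2154 CPM in RPR2 and 6697 in CRPR2 (ratio 3.11), followed relative to the median member by Rps27 at 2762 and 6618 (2.40) and Rps21 at 2059 and 4710 (2.29). The lower members included Rps27l, at 260 and 99.4 CPM (0.383), Rps19bp1 at 41.6 and 23.3 (0.561), and Rpl7l1 at 53.5 and 34.0 (0.636). Rps27 and its paralog Rps27l thus lay on opposite sides. Of 74 mitochondrial ribosomal protein genes 0 were higher and 42 lower, and of 21 biogenesis genes 0 were higher and 10 lower.

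The other lung classes with at least 100 cells in both libraries differed little. In B-cell-like cells 2 members were higher and 3 lower of 82, against 6.18% and 8.42% of all features. Rps18 was at 3289 CPM in RPR2 and 6039 in CRPR2 (1.84), Rps19bp1 at 20.8 and 32.1 (1.55) and, within the limit, Rps2 had a ratio of 1.47. The lower members were Rps15, at 3069 and 1735 CPM (0.565), Rpl23a at 1756 and 1071 (0.610) and Rpl5 at 2718 and 1668 (0.614). In club-like cells Rps18 alone passed, at 1213 and 2332 CPM (1.92), and 0 were lower, against 1.88% and 6.66% of all features. Rpl38 (1.36) and Rps28 (1.34) came next there, and Rpl23a (0.686), Rps15 (0.695) and Rpl10a (0.727) were lowest. In monocyte-like cells Rps18, at 1917 and 3868 CPM (2.02), and Rps2, at 1837 and 2782 (1.51), passed, and 0 were lower, against 11.7% and 14.6%. Rpl38 (1.45) followed there, and Rpl5 (0.743), Rpl10a (0.794) and Rps15 (0.819) were lowest.

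Across the classes of a pair some members kept their side of the median member. In the lung pair 14 of 82 members lay above it and 13 below it in every one of 9 classes, and in the allograft pair 22 of 81 lay above it and 17 below it in every one of 7. These classes come from the same libraries and are not replicates. The same count over all features is not given here, so these counts are no result about the members as a group. In CRPR2 over RPR2, Rps18 lay above the median member in all 9 classes, by 0.13 to 1.08 on the log2 scale, and Rps2 and Rpl38 also in all 9. Rps15, Rpl23a, Rpl5 and Rpl10a lay below it in all 9, Rps15 by as much as -0.93 and Rpl5 by as much as -1.01. In preSC_CracdKO over preSC_WT, Rps15 lay above the median member in all 7 classes, by 1.52 to 2.25, and Rpl23a by 1.41 to 1.88. Rps12, Rpl5 and Rpl13a lay above it in all 7 as well. Rpl9 lay below it in all 7, by -0.88 to -1.28, as did Rps3, Rpl27 and Rpl22l1. Rps18 also lay below it in all 7, by -0.12 to -0.61. The 7 classes include immune and stromal cells beside the tumour cells.

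**Figure D4:**
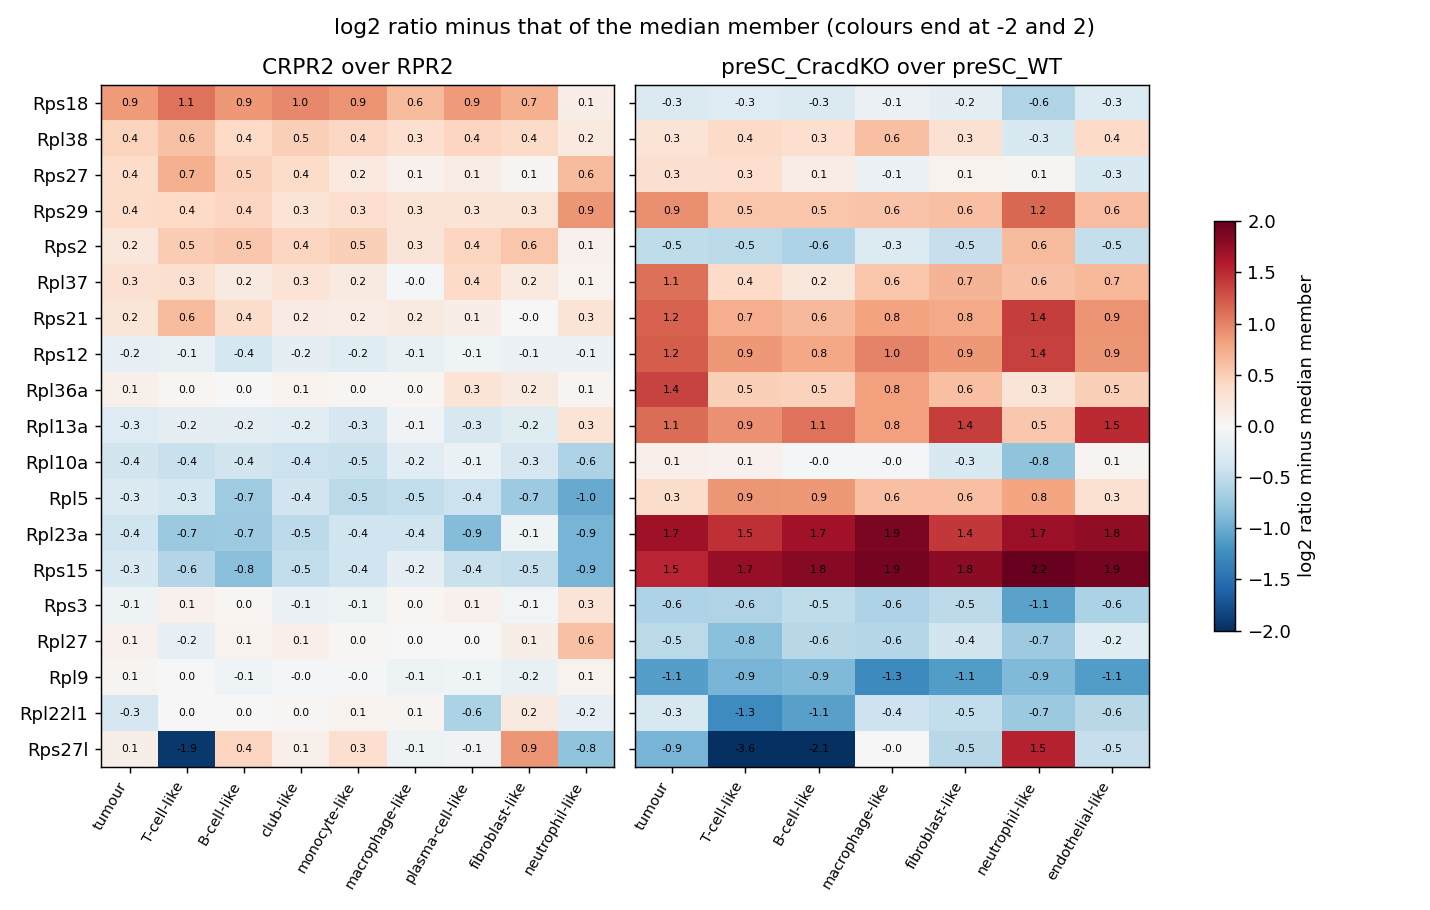
Log2 ratio of a member minus that of the median member, for 19 members (rows) and each class of a pair (columns), CRPR2 over RPR2 on the left and preSC_CracdKO over preSC_WT on the right. Colours end at -2 and 2 and the printed values are rounded. Rps15 and Rpl23a are blue across the lung classes and red across the allograft classes.

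The allograft immune and stromal classes of preSC_CracdKO were small, with 17 to 97 cells. In its T-cell-like cells Rps15 was at 2914 CPM against 716 in preSC_WT, from 277 and 1606 UMIs, and Rps18 was level at 7048 and 6952. Rps27l there rested on 1 UMI in preSC_CracdKO against 263 in preSC_WT, and in B-cell-like cells on 2 against 104. Krt8 of the epithelial tumour cells was at 123 CPM in the T-cell-like cells of preSC_WT and at 0 in those of preSC_CracdKO. The part of free RNA in these values was not tested.

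The coding length of a member went along with its ratio. In lung tumour cells Spearman's correlation across 82 members between coding length and log2 ratio was -0.50, and across 6988 other features -0.04. The 42 shorter members had a median log2 ratio of 0.01 and the 40 longer ones of -0.17. In allograft tumour cells the correlation was -0.29 across 81 members and 0.02 across other features, with medians of 0.87 for the shorter and 0.60 for the longer members. These are descriptions across genes, which share their library and depth, and were chosen after the values were seen.

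Differences between cell classes could be tested over the 4 libraries, each class against the tumour cells of its own library, with edgeR's quasi-likelihood test on UMIs summed per library and class. The library was a term of the fit. The p-values rest on how the difference between classes varied over these 4 libraries. That spread was estimated for each gene with information shared over all tested features. The T-cell-like class was not made up alike over the libraries. In RPR2, 2720 and 687 of its 4735 cells lay in clusters 0 and 12, which held 0 CRPR2 cells. The part of this in the result was not tested. In T-cell-like cells 76 of 82 tested members were higher than in tumour cells and 0 lower at an adjusted p under 0.05, where 15.7% of all features were higher and 23.5% lower. The median log2 fold change was 1.63 over the members and -0.17 over all features, and 1.24 and -0.56 with library sizes taken over non-members. In B-cell-like cells 74 of 82 were higher and 1 lower, against 16.8% and 27% of all features, with a median of 1.63 over the members. In macrophage- or monocyte-like cells 39 of 83 were higher and 0 lower, against 17.7% and 18.8%, with a median of 0.76. Without preSC_WT the count of higher members was 35 in T-cell-like and 47 in B-cell-like cells, against 1694 of 14969 and 1651 of 14385 features. In macrophage- or monocyte-like cells it was 10 without RPR2 and also without CRPR2, 12 without preSC_WT and 78 without preSC_CracdKO, which held 43 such cells. Over all features 2189 to 2721 of 14830 to 15414 were higher in these settings.

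Rps27, a zinc finger protein of the small subunit, and its retrogene Rps27rt led both lymphocyte classes. Over features shared by all lists, Rps27 was at 1186, 1448, 494 and 989 CPM in tumour cells of RPR2, CRPR2, preSC_WT and preSC_CracdKO. In T-cell-like cells it was at 2779, 6648, 3620 and 5560 CPM, so the classes did not overlap. The log2 fold change was 2.78 (SE 0.37, adjusted p = 0.000533 by edgeR), and 3.15 in B-cell-like cells (SE 0.32, adjusted p = 3.7e-05 by edgeR). Rps27rt had log2 fold changes of 2.92 and 3.22, but shares 91.1% of its words with Rps27, so the pair cannot be separated with certainty.

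Rpl12, a protein of the stalk base, was the next in both classes. It was at 1218, 1071, 569 and 1529 CPM in tumour cells and at 3473, 5858, 3381 and 6710 in T-cell-like cells of the same libraries, a log2 fold change of 2.75 (SE 0.34). Then came Rpl39 (2.38), Rps15a (2.29) and Rpl22 (2.24) in T-cell-like cells, and Rps19 (2.64) and Rps20 (2.53) in B-cell-like cells. Rpl22, which is needed for the development of T cells, was at 787, 981, 308 and 361 CPM in tumour cells and at 1682, 2180, 1476 and 1561 in T-cell-like cells. All these members were higher in 4 of 4 libraries.

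A few members did not follow. In T-cell-like cells the members not called included Rpl22l1 (log2 fold change 0.90, adjusted p = 0.098 by edgeR), Rpl36al (0.81), Rpl7l1 (0.00), Rps19bp1 (-0.56) and Rps27l (-1.30, adjusted p = 0.060 by edgeR). Rps27l was at 509, 519, 312 and 263 CPM in tumour cells of RPR2, CRPR2, preSC_WT and preSC_CracdKO. In B-cell-like cells it was at 71.5, 96.9, 90.9 and 23.7 CPM, below tumour cells in every library. There it was the 1 member called lower, with a log2 fold change of -1.80 (SE 0.33, adjusted p = 0.0014 by edgeR). In macrophage- or monocyte-like cells it was at 271, 360, 280 and 283 CPM, with a log2 fold change of 0.10 (adjusted p = 0.75 by edgeR).

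In macrophage- or monocyte-like cells the members called with the largest change included, after Rpl3l, Rps29 (log2 fold change 1.51), Rps27a (1.42), which encodes ubiquitin fused to a small subunit protein, Rpl39 (1.40) and Rps9 (1.39). Rpl3l was at 13.0, 8.17, 1.16 and 0 CPM there and at 0.24 CPM or less in tumour cells, from few UMIs, so that its fold change is not a usable size. Neither 5S partner was called, with log2 fold changes of 0.42 for Rpl5 and 0.31 for Rpl11. Of the stalk proteins, Rplp1 (0.90) and Rplp2 (0.81) were called and Rplp0 (0.77, adjusted p = 0.094 by edgeR) was not. In both lymphocyte classes all 3 stalk and both 5S partner genes were called higher.

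**Figure D5:**
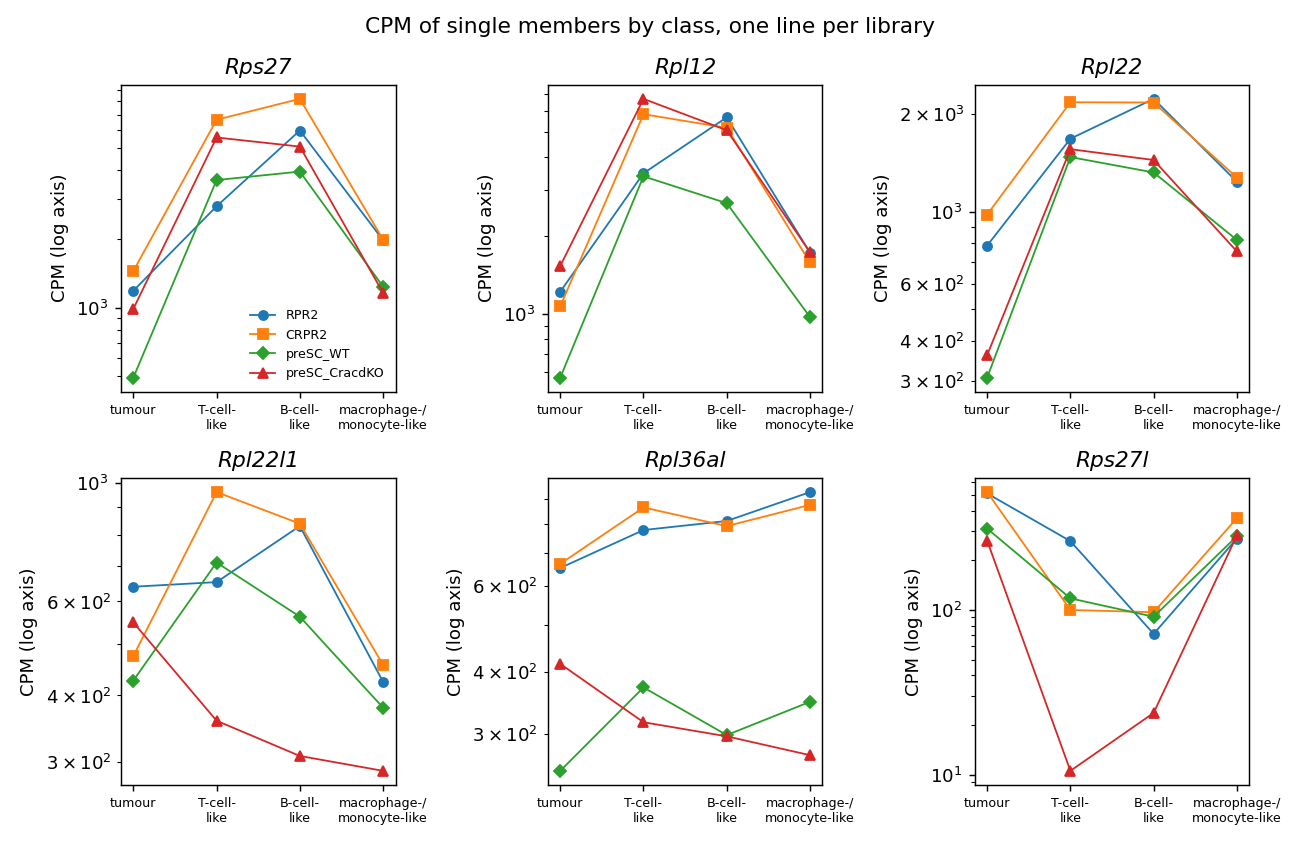
CPM (log axis) of 6 members in tumour, T-cell-like, B-cell-like and macrophage- or monocyte-like cells, with 1 line for each library. Rps27, Rpl12 and Rpl22 are higher in both lymphocyte classes in every library, while Rps27l is lower in B-cell-like cells in every library and rests on 1 UMI in preSC_CracdKO T-cell-like cells.

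Of the ribosomal protein genes outside the name rule, Rpsa, Fau and Rack1 were each called higher in T-cell-like and in B-cell-like cells, Fau with log2 fold changes of 2.09 and 2.58. Of these, Fau alone was called higher in macrophage- or monocyte-like cells (1.53). Of the 16 elongation factors and other TOP messages, 9 were called higher in T-cell-like, 8 in B-cell-like and 2 in macrophage- or monocyte-like cells, and 0 lower in any. Tpt1, a TOP message that encodes translationally controlled tumour protein, had log2 fold changes of 2.13, 1.77 and 1.08, and Eef1d of 1.98, 1.65 and 0.94. Of 26 biogenesis genes, 3 were called higher in T-cell-like and 2 in B-cell-like cells, and 2 were called lower in macrophage- or monocyte-like cells. Of 78 mitochondrial ribosomal protein genes, 4 were called higher and 1 lower in T-cell-like cells, 0 and 12 in B-cell-like cells, and 4 and 3 in macrophage- or monocyte-like cells. Of 13 cycling genes, 6 were called lower in T-cell-like and 12 in B-cell-like cells, and their part was not tested.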

How the data were processed

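Single-cell RNA-seq libraries, 2 from lung and 2 from allografts, were used. The values are UMI counts per gene and cell as deposited by the authors, from Cell Ranger 6.1.2 (lung) and 5.0.0 (allografts) per the file headers, with mm10 and Cell Ranger 6.1.2 per the submitters' processing notes. Barcodes under 300 genes or over 15% mitochondrial UMIs were dropped, Scrublet was used to remove doublets, and 2000 variable genes without the members were clustered (Scanpy 1.11.5, Leiden resolution 1.0) for each pair. Clusters were named from marker lists by a scoring rule set after the clusters were seen. Members and lists were chosen with earlier results of these data known.

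UMIs were summed per class and library. Ratios between libraries are CPM ratios, called at 1.5-fold and 20 CPM, and log2 ratios were taken after adding 1 CPM. Intervals are exact (conditional binomial, 95%) and cover counting error only. Named members are those farthest from the median member in a class, the 6 called members with the largest change in each class test, the 5 highest and 5 lowest members, and the lists; some genes these rules name are not reported here. Class tests used edgeR 4.0.16 (quasi-likelihood, filterByExpr, Benjamini-Hochberg, adjusted p under 0.05) with the library as a term, since both classes came from the same library, on classes of at least 20 cells. They were tested on simulated data. DESeq2 1.42.0, other scalings, filters, clusterings and left-out libraries were tried. Neighbours and lengths came from the GENCODE annotation given, whose build may not be the authors'.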

Additional observations from a re-analysis of the deposited data

Results flagged for a closer look

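Several values moved in opposite directions in the 2 pairs. With 1 library per group, the difference between pairs was not tested. In the tumour class the members' share had a ratio of 0.949 for CRPR2 over RPR2 and 1.75 for preSC_CracdKO over preSC_WT. In the neutrophil-like class, of 39 to 100 cells per library, the ratios were 1.29 and 0.677.

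Of 81 members at 20 CPM in both tumour comparisons, 50 had intervals on opposite sides of 1, and 6 of them are named in the report. The intervals cover counting error only, and the same count over all features is not given here. Most members moved with the summed share. In the lung pair 54 of 82 had a log2 ratio below 0, and in the allograft pair 78 of 81 had one above 0. The count of 50 is therefore no result about single members. Rpl23a had ratios of 0.710 in the lung and 5.22 in the allograft pair, and Rps15 of 0.763 and 4.61. The ratios were 0.842 and 3.72 for Rps12, and 0.792 and 3.52 for Rpl13a. Rpl31 had ratios of 0.935 and 2.95. For Rps3, a protein at the messenger entry site, they were 0.879 and 1.05.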

How the results depend on the processing

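The alternatives to the shares and counts were listed at the start except for the single T-cell-like clusters, which were added after seeing the data. The share ratio of lung tumour cells was 0.944 with doublets kept, 0.942 in cells of at least 2000 UMIs, 0.957 as a mean of per-cell shares and 0.931 with equal weight for each tumour cluster. That of the allograft tumour cells was 1.75 with doublets kept or members among the variable genes, 1.76 in cells of at least 2000 UMIs, 1.77 over UMIs outside mitochondrial, haemoglobin and immunoglobulin genes, 1.71 as a mean of per-cell shares and 1.18 with equal cluster weight. That of lung T-cell-like cells was 1.41 with doublets kept and in cells of at least 2000 UMIs, 1.54 at Leiden resolution 0.5, 1.71 as a mean of per-cell shares, 1.21 without clusters held by 1 library, 1.01 in cluster 10 alone and 1.43 in cluster 5 alone. No direction reversed.

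In lung tumour cells 0 members were higher at 2-fold, where 0.528% of all features were. With CPM over non-members 1 was lower, where 2.32% of all features were. In allograft tumour cells 23 of 81 were higher and 0 lower at 2-fold, against 6.99% and 14.2% of all features. With equal cluster weight 16 of 81 were higher and 4 lower, against 18.2% and 20.5%. Of 403 values for single named genes, 399 kept their direction and side of the threshold, 1 lost its call (Rps18 at 2-fold) and 3 gained one (Rpl9, Rpl7l1 and Rps27l, with equal cluster weight). The cause was not tested.

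Libraries pair the classes. With no replicate block, 66 members were called higher and 0 lower in T-cell-like, 55 and 2 in B-cell-like, and 10 and 0 in macrophage- or monocyte-like cells. Over all features the counts were 1822 and 2312 of 13768, 1325 and 3862 of 13319, and 1882 and 1141 of 13736. Leaving out 1 library gave 35 to 79 higher and 0 to 1 lower in T-cell-like, 47 to 79 and 1 to 2 in B-cell-like, and 10 to 78 higher in macrophage- or monocyte-like cells. Over all features, 1694 to 2456 of 14969 to 15472, 1651 to 2697 of 14385 to 15123, and 2189 to 2721 of 14830 to 15414 were higher. In the same order 2572 to 3495, 3023 to 4770, and 1417 to 3209 features were lower. With at least 50 cells per class, which drops preSC_CracdKO, 78 were higher in macrophage- or monocyte-like cells, against 2721 of 15011 features. Lower T-cell-like members numbered 2 by DESeq2, 1 with its size factors in edgeR and 2 with library sizes over non-members, and lower B-cell-like members 2 with each of the last 2. Lower features numbered 3994 of 17522, 4667 of 15916 and 4952 of 15916 in T-cell-like cells. In B-cell-like cells they numbered 4960 and 5462 of 15316. Library sizes over non-members left 60 higher members in T-cell-like, 67 in B-cell-like and 37 in macrophage- or monocyte-like cells. Higher features then numbered 1895 of 15916, 2026 of 15316 and 2583 of 15607. Depth limits Rps27l and Rpl3l, which rest on few UMIs in some classes.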

Other observations

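In the lung pair, cluster 13 was left unnamed because it met the rule for no class. It passed on 5 tumour markers, where the tumour name needed 6. It held 508 CRPR2 cells and 2 RPR2 cells, and its leading genes were Tm4sf1, S100a6, Spp1 and Tff1. The members held 24.8% of its UMIs in CRPR2, above the 13.4% of the tumour class of that library, at a median depth of 13140.5 UMIs per cell and with Krt8 at 2300 CPM.

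In the allografts, cluster 15, led by tumour genes and by the erythroid gene Alas2, held 143 preSC_CracdKO cells with a share of 18.8% and 17 preSC_WT cells with 7.52%. Cluster 17 held 29 preSC_WT cells led by the stress genes Ddit3 and Derl3, with a share of 12.7%.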
